A study of Homo sapiens with 7 samples.

Results

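The CEACAM genes analysed here are CEACAM1, CEACAM3, CEACAM5, CEACAM6, CEACAM7, CEACAM8 and CEACAM19, chosen by name, 7 of the 20162 protein-coding genes that GENCODE 44 places on hg19. All of them lie on the long arm of chromosome 19. The data are broad peaks, called intervals here, from PIXUL-ChIP-seq of HCT116, a human colorectal carcinoma line, for H3K4me1, H3K4me3, H3K9Ac, H3K27me3, H3K36me3 and CTCF. Each antibody was used on chromatin of 1 well of about 200000 cells that had been sonicated for 6 min, with no treatment named, and gave 1 library. There were therefore no replicates and no contrast between conditions, so every value below is a description without a test or a replicate error. The lists hold no read counts, and the depth of each library is unknown. Every interval that overlapped a gene body or the 10 kb on either side of it was taken, which gave 49 of the 240889 intervals in the lists.

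Carcinoembryonic antigen-related cell adhesion molecules are immunoglobulin-like proteins of the cell surface that bind one another between cells and also serve as receptors for bacteria. CEACAM5 is carcinoembryonic antigen itself, the serum marker of colorectal cancer, and with CEACAM6, CEACAM7 and CEACAM8 it is held in the membrane by a glycosylphosphatidylinositol (GPI) anchor. CEACAM1, CEACAM3 and CEACAM19 cross the membrane. CEACAM5, CEACAM6, CEACAM7 and CEACAM1 are made by colon epithelium, whereas CEACAM3 and CEACAM8 are known from granulocytes. Of the marks, H3K4me3 and H3K9Ac accompany active promoters, H3K4me1 is typical of enhancers, H3K36me3 of transcribed gene bodies and H3K27me3 of genes silenced by Polycomb. CTCF binds DNA by sequence and shapes chromatin loops.

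A CTCF interval lay within 3 kb upstream of the start site of 6 of the 7 genes, a distance chosen after the values were seen, against 29.3% of protein-coding genes. Within 1 kb on either side of the start site, the window planned for promoters, CTCF was listed at 2 of the 7, against 29.5%. The sequences at the 6 upstream intervals are shown first because 4 of these intervals lay in or across gaps between H3K27me3 intervals. For each gene, the sequence is the closest match to the 12-base CTCF core inside the nearest upstream CTCF interval, printed 5′ to 3′ on the strand that carries it, with the core in capitals and 9 bases on each side, read from hg19:
CEACAM7 (chr19:42195482-42195511, minus strand): cctcattgtCCCCCAGAGGGCagcagagtc
CEACAM5 (chr19:42210736-42210765, plus strand): ccctcctgtCCACCAGAGGGCggcagagtt
CEACAM8 (chr19:43100804-43100833, minus strand): ccttccagtCCACCAGAGGGCgacagagtc
CEACAM6 (chr19:42258029-42258058, minus strand): cagctccgaCCACTAGAGGGCatagaagca
CEACAM3 (chr19:42299090-42299119, minus strand): cagctctgaCCACTAGAGGGCatagaagca
CEACAM1 (chr19:43033836-43033865, plus strand): gagaactgtCCACCAGGGGGAtgggctgcc
The cores at CEACAM5, CEACAM8, CEACAM6 and CEACAM3 matched without a mismatch, and those at CEACAM7 and CEACAM1 with 1. Some of the stretches were alike and others were not. Those at CEACAM6 and CEACAM3 differed at 1 of 30 bases, those at CEACAM5 and CEACAM8 at 4, and those at CEACAM7 and CEACAM5 at 7. The stretch at CEACAM7 differed from those at CEACAM3 and CEACAM6 at 13 and 14 bases, and that at CEACAM1 from the other 5 at 13 to 15. The median over the 120 pairs of the 16 sites around these genes with up to 1 mismatch was 15. The 12 core bases were selected by their match, so likeness within the core was built in. At CEACAM7, CEACAM5 and CEACAM8 the core lay on the strand of the gene, and at CEACAM6, CEACAM3 and CEACAM1 on the opposite strand. Over all 7 genes, 6 of 17 CTCF intervals contained the core without a mismatch and 14 with up to 1, against 15.7% and 52.9% of the 44812 CTCF intervals of the whole list. The 17 intervals had a median fold enrichment of 10.6, against 7.15 over the whole list, and intervals of like strength were not compared. A match describes the sequence and does not show which base CTCF contacts.

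No H3K4me3 interval was listed over or within 10 kb of any of the 7 genes, with or without the limits of the Methods. Among all protein-coding genes, 61.6% had an H3K4me3 interval within 1 kb of the transcription start site (TSS) of the canonical transcript and 72.9% within the wider region. All 7 genes were poor in CpG within 1 kb of the TSS, with an observed to expected ratio under 0.4. Of the 5298 coding genes under that ratio, 8.44% had H3K4me3 within 1 kb of the TSS. H3K27me3 was listed at the promoter (1 kb on either side of the TSS) of 4 genes, CEACAM7, CEACAM5, CEACAM6 and CEACAM3, against 9.6% of coding genes. Among the coding genes under that CpG ratio, 17.8% had it. The 4 genes follow each other on the chromosome and are not separate cases. H3K4me1 was listed at 2 promoters, CEACAM6 and CEACAM19, against 61.2%, and H3K9Ac at CEACAM19, 1 promoter, against 64.3%. CTCF was listed at 2 promoters, CEACAM5 and CEACAM1, against 29.5%, and H3K36me3 at 0, against 6.49%. Of the 49 intervals around the genes, 17 were of H3K27me3, 17 of CTCF, 8 of H3K4me1, 6 of H3K9Ac and 1 of H3K36me3.

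The Methods state limits for peaks to be kept. For H3K4me1 and H3K27me3 the q-value must be under 1e-03 and the fold enrichment over 2, for the other histone marks under 1e-10 and over 5, and the second pair was applied to CTCF as well. These limits left 21 of the 49 intervals: 13 of CTCF, 4 of H3K27me3 and 4 of H3K4me1. Over the whole lists, the limits kept 54.8% of CTCF, 2.81% of H3K27me3, 63.9% of H3K4me1, 37.2% of H3K9Ac and 0.225% of H3K36me3 intervals. At the promoter, an H3K27me3 interval past the limits remained at CEACAM7, CEACAM5 and CEACAM6, 3 genes, against 1.22% of coding genes. The CTCF intervals at 2 promoters also passed, against 13.6%. H3K4me1 past the limits was left at 0 of the 7 promoters (49.1% of coding genes), as were H3K4me3 (59.1%), H3K9Ac (58.5%) and H3K36me3 (0.298%).

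Counted over the gene body and 10 kb around it, CTCF was listed at all 7 genes, against 78.9% of coding genes, and H3K27me3 at 6, all but CEACAM19, against 30%. H3K4me1 was listed at 5 genes (81.3%), and H3K9Ac (79.1%) and H3K36me3 (65.9%) at CEACAM19 alone. Past the limits, CTCF stayed at 7 genes (62.4%), H3K27me3 at 4 (3.94%) and H3K4me1 at 2, CEACAM6 and CEACAM19 (71.9%). The 4 genes with H3K27me3 are neighbours that share intervals, so they are not separate cases. CEACAM3 was counted through an interval outside its body that was also counted for CEACAM6. H3K4me3 (69.1%), H3K9Ac (68.3%) and H3K36me3 (0.789%) were at 0.

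The lists were checked for the label of the cells and for copies of these genes. Of 9 markers of epithelium and colon, 6 had H3K4me3 at the promoter (EPCAM, CDH1, KRT8, KRT18, KRT19 and CDX2), a share near the 61.6% of all coding genes, while CDH17, VIL1 and CDX1 had none. Of 9 matched markers of blood, fibroblasts, liver, pancreas and heart, 0 had it. The names of the intervals carry the word HCT116 in the other lists, but in 0 of the 55270 names of the H3K27me3 list. Those names carry a different code in its place, so that for H3K27me3 the cell line rests on the label alone. Because CEACAM genes resemble each other, the share of 75-base windows, the length of the reads, that occur once in hg19 was computed. It lay between 96.9% (CEACAM3) and 99.5% (CEACAM7) of the start positions in the 7 gene bodies.

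CEACAM7, CEACAM5, CEACAM6 and CEACAM3 follow each other within 158362 bp, counting 10 kb at each end, and 11 H3K27me3 intervals covered 81.6% of this length. The fold enrichment given is that of the peak caller over its background, which the Methods describe as input. Its percentile is the place of the interval in its own list. CEACAM5 (ENSG00000105388, chr19:42212504-42234353, plus strand) lay wholly inside 1 H3K27me3 interval, chr19:42212377-42256838, of 44462 bp (fold enrichment 3.95, −log10 q-value 3.29). It contained the canonical TSS at 42212545, stood at rank 182 of the list by width and at percentile 98.8 by fold enrichment. A body covered to 100% was found for 272 coding genes (1.35%).

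CEACAM6 (ENSG00000086548, chr19:42254885-42276116, plus strand) had the highest H3K27me3 fold enrichment of the 7 genes, 4.17, in an interval of 19409 bp from 42258492 to 42277900 that contained all 6 exons of the canonical transcript. Its −log10 q-value was 3.65, and it stood at percentile 99.5. The body was covered to 92.2%. CEACAM7 (ENSG00000007306, chr19:42177231-42210895, minus strand) had its 5 canonical exons inside an H3K27me3 interval of 22472 bp, chr19:42172120-42194591 (fold enrichment 3.91). The annotated body extends upstream of the canonical TSS at 42192199, and over its whole length 89.6% was covered. The 3 GPI-anchored members made by colon epithelium thus each had the whole canonical transcript under H3K27me3.

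CEACAM3 (ENSG00000170956, chr19:42300519-42315592, plus strand) closed the row with thinner coverage. Its TSS lay inside an interval of 4767 bp (fold enrichment 3.18, −log10 q-value 1.91) that did not pass the limits. Further intervals of 804, 1538 and 4450 bp over and behind the gene had fold enrichments of 2.73, 3.58 and 2.72. The body was covered to 39.0%, which 1140 coding genes (5.65%) reached or exceeded. Beyond the canonical transcripts, every annotated coding start site of CEACAM7 (3), CEACAM5 (5), CEACAM6 (2) and CEACAM3 (4) lay inside an H3K27me3 interval, and 0 of those of CEACAM1 (8), CEACAM8 (2) and CEACAM19 (3) did. The canonical TSS lay inside one for 5.58% of coding genes. The interval past the limits nearest to CEACAM3, with a fold enrichment of 3.88, ended 3657 bp upstream of its TSS.

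**Figure D1:**
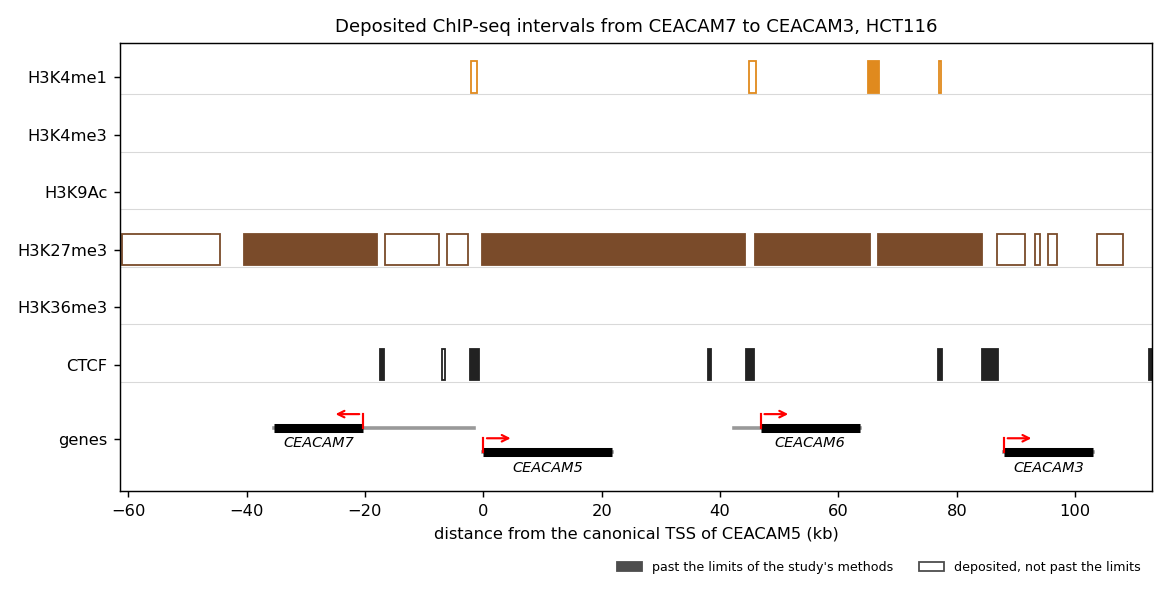
Intervals of the 6 marks from CEACAM7 to CEACAM3, plotted by distance from the canonical TSS of CEACAM5 in kb; filled bars passed the limits of the Methods and open bars did not. Black gene bars are canonical transcripts, grey lines the annotated bodies, and red arrows the start sites. The 4 filled H3K27me3 bars lie over CEACAM7, CEACAM5, CEACAM6 and the space before CEACAM3, and the H3K4me3 row is empty.

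The row of H3K27me3 was interrupted by gaps, and CTCF lay in 5 of the 10. One gap without CTCF, behind CEACAM3, measured 6709 bp. Of the 9 gaps of 5000 bp or less, 5 were overlapped by a CTCF interval, against 6.25% of the 30968 such gaps of the whole H3K27me3 list. With at least 3000 bp of H3K27me3 on each side, the numbers were 5 of 7, against 7.75% of 6965. This comparison was chosen after the intervals had been seen. The 9 gaps measured 1228 to 4073 bp. Gaps of the whole list were not matched to them for length or for nearness to a start site. Whether CTCF was more frequent here than in gaps of like length and position was therefore not tested. In 4 of the 5 gaps the CTCF interval lay wholly between the H3K27me3 intervals, with 80 to 532 bp free on either side. Before CEACAM3, the 2690 bp CTCF interval overlapped H3K27me3 by 266 bp.

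Upstream of CEACAM7, a gap of 1278 bp held a CTCF interval with a fold enrichment of 14.0, and the gap of 1228 bp next to it a weaker one (6.00, not past the limits). Upstream of CEACAM5, a gap of 2483 bp held the CTCF interval chr19:42210331-42211845, whose fold enrichment of 16.3 was the highest CTCF value around the 7 genes (percentile 93.3 of the list). Upstream of CEACAM6, a gap of 1653 bp held one with 13.5. The gap before CEACAM3 measured 2424 bp and its CTCF interval had 12.4. In these 5 gaps, 99.4% to 100% of the 75-base windows occurred once in hg19, and in the 5 gaps without CTCF 92.0% to 100% did. Under the H3K27me3 intervals around the 7 genes the share was 94.1% to 100%.

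Weak H3K4me1 shared the gaps in front of CEACAM5 and CEACAM6. At CEACAM5 the H3K4me1 interval had a fold enrichment of 3.74, and at CEACAM6 3.67, both short of the q-value limit with −log10 q-values of 2.78 and 2.62. Another H3K4me1 interval, behind CEACAM6 in a gap without CTCF, had 4.43 and passed the limits. CTCF was not confined to gaps: the intervals chr19:42250428-42250998 (fold enrichment 9.43) and chr19:42289282-42289959 (11.5) lay wholly under H3K27me3, the second between the regions taken for CEACAM6 and CEACAM3.

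Aligned at the start sites, the nearest edge of the upstream CTCF interval was 555 bp away at CEACAM1, 700 bp at CEACAM5, 1043 bp at CEACAM3, 1078 bp at CEACAM6, 1321 bp at CEACAM8 and 2910 bp at CEACAM7. CEACAM19 stood apart, with 13575 bp. The cores printed above lay between 1212 bp (CEACAM1) and 3292 bp (CEACAM7) upstream. All 6 intervals passed the limits. Past the limits, CTCF was listed within 3 kb upstream of the TSS at 6 of the 7 genes, against 15.5% of coding genes. CTCF at this distance together with a TSS inside an H3K27me3 interval was found at 4 of the 7 genes, against 0.739% of coding genes. Both comparisons use the distance chosen after the values were seen, and the combination with H3K27me3 was not planned beforehand either. The 4 genes also follow each other in the same row of H3K27me3 and are not separate cases. Within 1 kb on either side of the TSS, CTCF was listed at 2 of the 7 genes, against 29.5%.

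**Figure D2:**
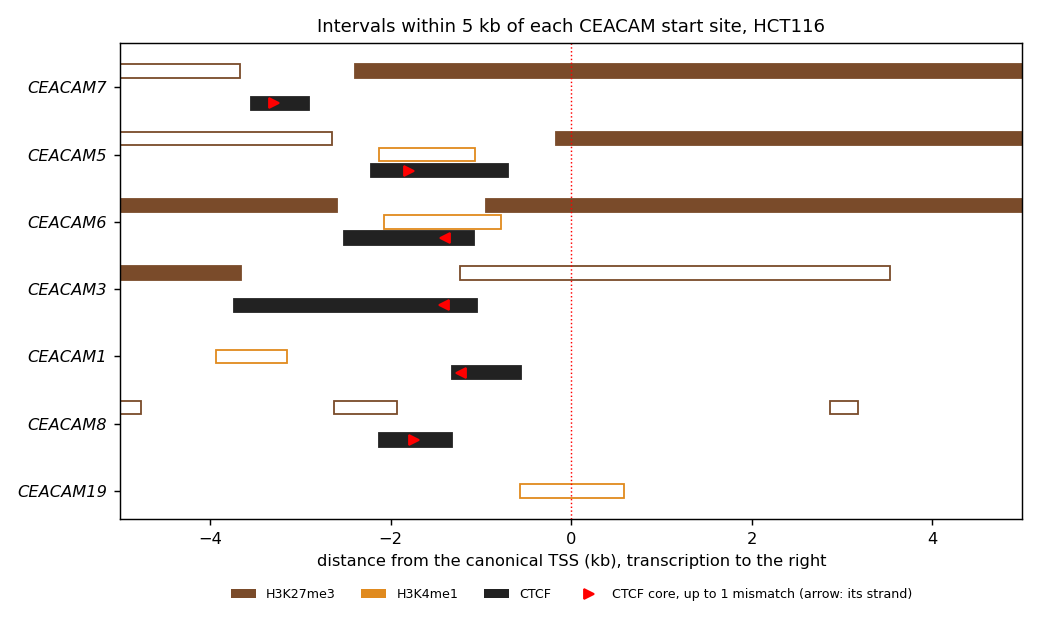
H3K27me3, H3K4me1 and CTCF intervals within 5 kb of the canonical TSS of each gene, in kb with transcription to the right; filled bars passed the limits, open bars did not, and red arrows mark CTCF cores with up to 1 mismatch, pointing right where they lie on the strand of the gene. CTCF stands upstream of 6 start sites, and at CEACAM7, CEACAM5, CEACAM6 and CEACAM3 the H3K27me3 bar that covers the TSS begins downstream of CTCF or overlaps its edge.

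CEACAM1 (ENSG00000079385, chr19:43011456-43065386, minus strand), an inhibitory receptor of epithelia and leukocytes, carried little but CTCF. The CTCF interval at its promoter, chr19:43033188-43033957, had a fold enrichment of 13.7, and 4 more upstream of it had 9.05, 4.11, 9.25 and 14.1. Over the canonical transcript, which starts at 43032633, no interval of any of the 6 marks was listed. An H3K4me1 interval 3149 bp upstream had 3.27, and 1 H3K27me3 interval of 655 bp had 2.60 with a −log10 q-value of 1.03, at the edge of the list. H3K27me3 covered 1.21% of the annotated body.

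CEACAM8 (ENSG00000124469, chr19:43084395-43099207, minus strand), a surface antigen of granulocytes, had a CTCF interval of fold enrichment 15.7 that came to within 1321 bp of its TSS and no interval at the promoter itself. This CTCF interval overlapped an H3K27me3 interval of 694 bp. Around it, 5 H3K27me3 intervals between 319 and 6504 bp wide had fold enrichments from 2.62 to 3.23, none past the limits. They covered 10.2% of the body and 31.3% of the region with 10 kb on each side. The lack of any of the 6 marks at the promoter was shared with 4820 coding genes (23.9%).

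**Figure D3:**
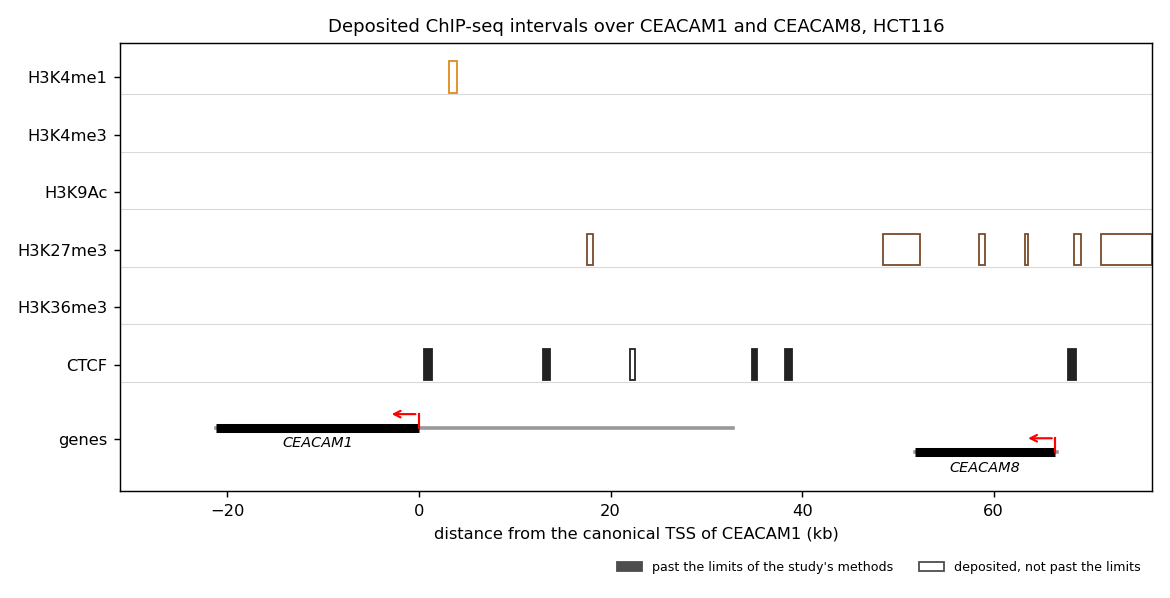
Intervals of the 6 marks over CEACAM1 and CEACAM8, plotted by distance from the canonical TSS of CEACAM1 in kb, with filled bars past the limits of the Methods and open bars not. CTCF supplies all of the filled bars, and the H3K27me3 bars near CEACAM8 are open.

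CEACAM19 (ENSG00000186567, chr19:45165545-45187631, plus strand), a less studied transmembrane member at a distance from the others, was the 1 gene of the 7 with H3K9Ac and without H3K27me3. At its canonical TSS, 45174754, the H3K4me1 interval had a fold enrichment of 3.27 and the H3K9Ac interval 2.93, with −log10 q-values of 1.90 and 1.56, and stood at percentiles 16.7 and 17.3 of their lists. The values were higher toward the 3′ end. An H3K4me1 interval of 2009 bp inside the body, over no canonical exon, had 4.64, one of 5524 bp over 3 exons at the 3′ end had 6.10, and one of 8081 bp behind the gene had 5.65. All 3 passed the limits. From 5705 bp after the TSS onward, 4 H3K9Ac intervals had 3.45, 3.47, 4.56 and 4.65, none past them. H3K4me1 covered 28.8% of the body and H3K9Ac 18.3%. The H3K4me1 interval of 8081 bp ended at 45200006, before the TSS of CEACAM16, the next coding gene to the right, at 45202421. CEACAM16 had a separate H3K4me1 interval at its promoter, with a fold enrichment of 3.18.

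The 5′ part of the annotated CEACAM19 body overlaps PVR, the poliovirus receptor gene, by 3886 bp on the same strand. PVR, named because of this overlap, had H3K4me3 with a fold enrichment of 25.8 and H3K9Ac with 16.5 at its own TSS. The single H3K36me3 interval around the 7 genes, chr19:45149169-45167672 with a fold enrichment of 3.81, covered 82.9% of the PVR body and ended 7082 bp before the canonical TSS of CEACAM19. Around CEACAM19, 4 CTCF intervals had fold enrichments of 6.54, 10.6, 11.6 and 5.26, none within 10 kb of the canonical TSS.

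**Figure D4:**
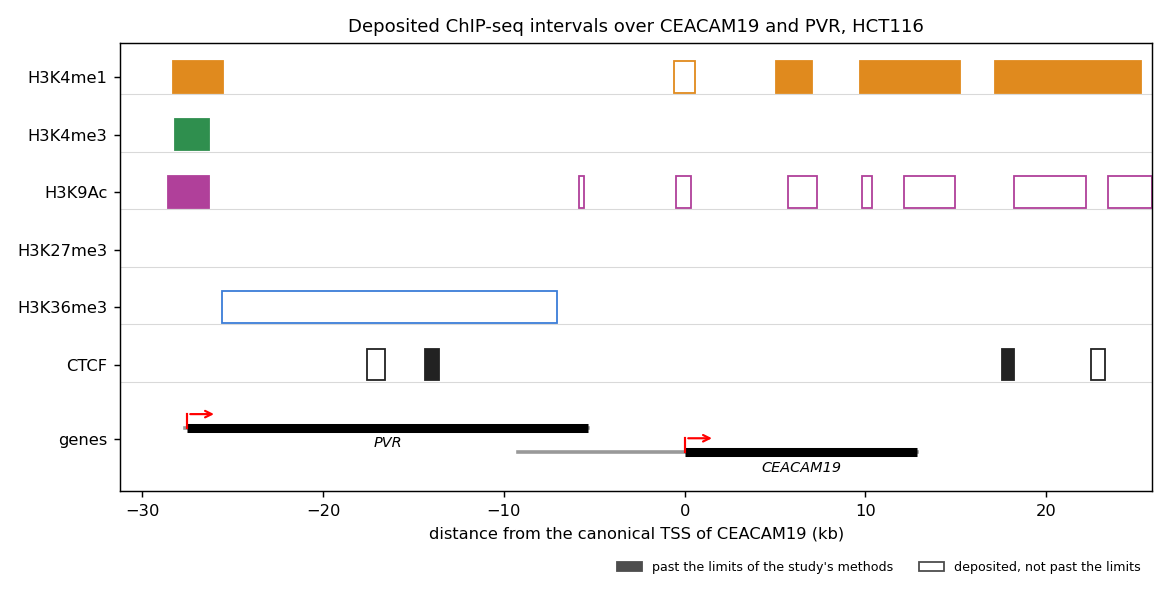
Intervals of the 6 marks over PVR and CEACAM19, plotted by distance from the canonical TSS of CEACAM19 in kb, with filled bars past the limits of the Methods and open bars not. The filled H3K4me3 and H3K9Ac bars belong to the start of PVR. CEACAM19 has open H3K9Ac bars, and 3 filled H3K4me1 bars lie inside it toward its 3′ end or behind it.

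The promoter sequences of the 3 GPI-anchored members under wide H3K27me3 are shown for comparison. They run from 250 bases before to 50 bases after the RefSeq gene start (GRCh38.p14 table), were found unchanged in hg19 at the positions given, and have the E-box CACGTG in capitals where present:
CEACAM5 (chr19:42212295-42212594, plus strand): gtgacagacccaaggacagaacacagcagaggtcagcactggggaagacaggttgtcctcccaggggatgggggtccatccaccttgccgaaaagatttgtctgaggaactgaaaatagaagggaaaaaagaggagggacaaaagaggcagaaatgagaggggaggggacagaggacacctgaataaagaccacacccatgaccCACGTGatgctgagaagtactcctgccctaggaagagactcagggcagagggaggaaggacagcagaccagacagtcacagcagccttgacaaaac
CEACAM6 (chr19:42259188-42259487, plus strand): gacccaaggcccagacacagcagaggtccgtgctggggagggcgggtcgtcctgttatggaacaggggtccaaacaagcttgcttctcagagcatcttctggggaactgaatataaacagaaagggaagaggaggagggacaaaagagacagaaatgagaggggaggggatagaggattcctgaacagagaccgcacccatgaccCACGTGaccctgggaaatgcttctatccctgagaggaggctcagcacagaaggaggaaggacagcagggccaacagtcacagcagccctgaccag
CEACAM7 (chr19:42192150-42192449, minus strand): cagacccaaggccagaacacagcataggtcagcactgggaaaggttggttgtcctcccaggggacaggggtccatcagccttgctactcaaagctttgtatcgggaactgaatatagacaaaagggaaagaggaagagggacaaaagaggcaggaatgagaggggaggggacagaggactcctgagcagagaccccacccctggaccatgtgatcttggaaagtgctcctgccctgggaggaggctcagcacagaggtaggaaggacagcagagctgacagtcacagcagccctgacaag
In a global alignment, CEACAM7 was 81.4% identical to CEACAM5 and 81.3% to CEACAM6, and CEACAM5 was 75.9% identical to CEACAM6. CEACAM7 was 73.4% identical to CEACAM1, and CEACAM6 73.1% to CEACAM3, little less than CEACAM5 to CEACAM6. The promoter of CEACAM8 shared 57.9% to 64.3% with the others. RefSeq promoters were matched for 6 of the 7 genes, not for CEACAM19.

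The E-box CACGTG, a sequence that the upstream stimulatory factors USF1 and USF2 bind, was present at CEACAM5, 46 bases before the gene start, and at CEACAM6, 45 bases before it, but not in the other 4 promoters matched. It occurred in 7.26% of 35116 RefSeq promoters. The GC box GGGCGG was found at CEACAM6, CEACAM1 and CEACAM8 (45.0% of promoters), TATAAA at CEACAM6 (11.5%) and CCAAT at none of the 6 (34.6%). Motifs were searched on both strands and are descriptions of sequence. All 7 promoters were poor in CpG. Over 1 kb on either side of the canonical TSS, the observed to expected CpG ratio was 0.091 to 0.116 in 6 genes and 0.210 in CEACAM19, against a median of 0.635 over coding genes. Of the 5298 coding genes with a ratio under 0.4, 8.44% had H3K4me3 at the promoter and 17.8% had H3K27me3, against 80.6% and 6.68% of the others.

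In the rest of the family on chromosome 19, the marks varied from gene to gene. H3K27me3 covered over 50% of the body of CEACAM4 (100%), CEACAM21 (77.6%) and CEACAM18 (67.4%), as it did for 3 of the 7 genes above, but 1.84% of CEACAM20 and none of CEACAM16. Over coding genes the mean was 5.60%, and 4.56% of genes reached 50%. The 10 pregnancy-specific glycoprotein (PSG) genes, which encode secreted placental relatives, had 0 promoters with any of the 6 marks and bodies covered by H3K27me3 to between 0 and 46.8% (PSG5). Among all coding genes, 23.9% had none of the 6 marks at the promoter. None of the 15 other family genes had H3K4me3 or H3K9Ac at the promoter, against 64.4% of coding genes with at least 1 of these 2 marks. Joined over gaps of up to 10000 bp, the H3K27me3 intervals formed a run of 383707 bp, from 41959751 to 42343457, with the start sites of CEACAM21, CEACAM4, CEACAM7, CEACAM5, CEACAM6 and CEACAM3 and of a gene model that reads through from CEACAM5 to CEACAM6. H3K27me3 lay on 77.9% of the run.

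**Figure D5:**
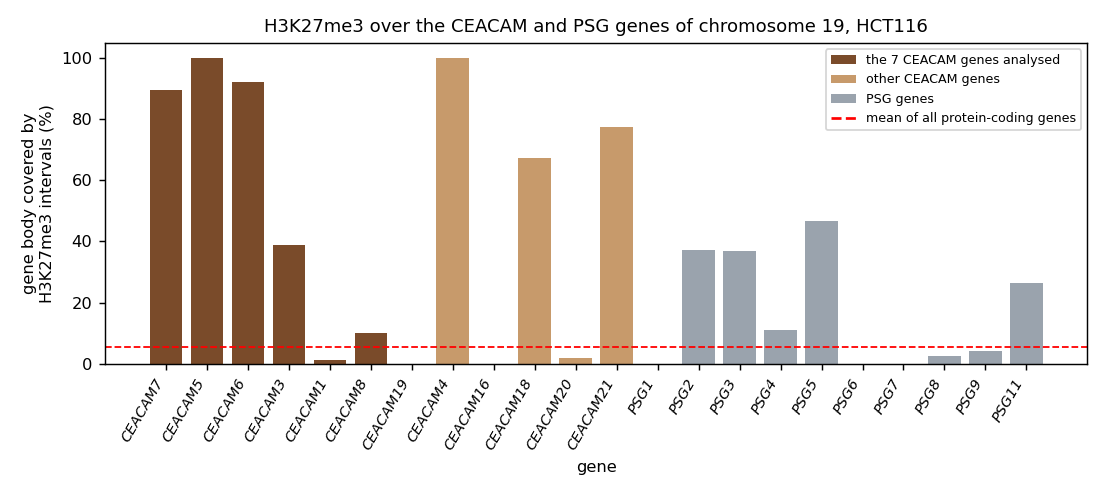
Share of each gene body covered by deposited H3K27me3 intervals, in percent, for the 7 CEACAM genes analysed (dark brown), 5 other CEACAM genes (light brown) and 10 PSG genes (grey), with the mean of all protein-coding genes as a dashed line. CEACAM5 and CEACAM4 reach 100%, and no PSG gene exceeds 46.8%.

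Genes that act with or upon the CEACAM proteins were looked up for the same promoter marks, which 61.6% (H3K4me3) and 64.3% (H3K9Ac) of all coding genes had. All 8 regulators listed (USF1, USF2, SP1, SP3, IRF1, SOX9, CDX2 and HNF4A) had H3K4me3 and H3K9Ac at the promoter, with H3K4me3 fold enrichments from 7.92 at HNF4A to 32.7 at SP3. SOX9 also had H3K27me3 there, with a fold enrichment of 2.91. The 5 genes of the GPI transamidase, which attaches the anchor, all had H3K4me3, from 15.1 at PIGU to 47.2 at GPAA1. Of 5 signalling partners and ligands, 3 had it, near the share of all genes: PTPN11, SRC and LGALS3. PTPN6, a phosphatase that CEACAM1 recruits, did not, although it had H3K9Ac (2.78). HAVCR2, a receptor on T cells that binds CEACAM1, had neither mark.

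For the genes with 2 or more marks at the promoter, the coding genes nearest in log2(fold enrichment + 1) over the 6 marks were sought. For CEACAM5 these were its read-through model, which shares the same intervals, then TBC1D21 (distance 0.222) and HAO2 (0.268). They were MARCHF4 (0.042), TTC29 (0.143) and CCDC198 (0.148) for CEACAM6, and MUC20 (0.041), ASB9 (0.059) and MAP4 (0.062) for CEACAM19. The combination of H3K27me3 and CTCF alone, as at CEACAM5, was found at 61 coding genes, and that of H3K4me1 and H3K27me3 alone, as at CEACAM6, at 42.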

How the data were processed

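The authors mapped reads to hg19 by BWA and used MACS2 in its broad mode (cutoff 0.1). The submitters' processing notes list BWA 0.7.12, MACS 1.4.2, SAMtools 0.1.19 and bcl2fastq 2.20.0.442. The deposited lists give, for each interval as a whole, the fold enrichment as a linear ratio, and p-values and q-values as −log10. Depth is unknown, and it can change which intervals are called and how wide they are. H3K27Ac was not analysed here. Positions are printed from 1. Genes came from GENCODE 44 on GRCh37, whose chromosomes hold the same sequence positions as hg19. Overlaps required 1 bp, and the CTCF core was the 12-base consensus of its motif, searched on both strands. The overlap code recovered 500 of 500 planted overlaps, and 0 calls differed from bedtools 2.31.1. Python 3.11.15, numpy 2.4.6, pandas 2.3.3, pyfaidx 0.9.0.4 and biopython 1.88 were used. Named genes were the 7 members, the family, partner, regulator and marker lists, neighbours, and for each member with 2 or more promoter marks the 3 nearest genes. PVR was added after its values were seen, and PECAM1 was not matched. The members and lists were chosen with earlier results of these data known.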

Additional observations from a re-analysis of the deposited data

How the results depend on the processing

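The counts of intervals and of promoters were recomputed with other limits, windows and start sites and, for CTCF, with a window of 3 kb upstream that was chosen after the data had been seen. Of 55 recomputed counts, 39 stayed within 1.5 times the reported one and 16 did not. The 39 include counts of 0 for H3K4me3 and for H3K36me3 promoters that stayed at 0. With the limits of the Methods, and equally with the fold enrichment limit multiplied by 1.5, the intervals around the genes numbered 4 for H3K4me1, 0 for H3K9Ac, 4 for H3K27me3 and 0 for H3K36me3, and promoters with H3K4me1 and with H3K9Ac numbered 0. These changes follow from the fewer intervals that enter. Over the gene bodies alone, 7 CTCF intervals remained. CTCF promoters numbered 5 with 2 kb on each side of the TSS and 6 with 3 kb upstream, and with any TSS of a coding transcript 1 promoter, that of CEACAM19, touched H3K36me3. H3K4me3 stayed at 0 in every alternative, and stricter limits could not change it. Merging intervals within 1000 bp left the 6 counts as they were. No paired analysis was possible because there is a single library per antibody. Without read counts, an interval that was not listed cannot be told apart from one missed at low depth.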

Other observations

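The CTCF intervals upstream of CEACAM1 included one, chr19:43067417-43067964 with a fold enrichment of 9.25, whose closest core has 1 mismatch and lies in a 30-base stretch (chr19:43067673-43067702, plus strand) that differed from the stretch at CEACAM3 at 3 bases and from that at CEACAM6 at 4. Another, chr19:43045555-43046261 with a fold enrichment of 9.05, holds a core without a mismatch whose stretch differed from that at CEACAM7 at 7 bases and from those at CEACAM5 and CEACAM8 at 8. Of the 120 pairs of sites, 10 differed at fewer than 10 bases.

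The nearest H3K4me3 interval to CEACAM19, at the start of PVR, was 17108 bp away (fold enrichment 25.8). To the right of CEACAM3 one with a fold enrichment of 5.87, not past the limits, lay at 24525 bp, and the same interval was the nearest to CEACAM6 (64001 bp), CEACAM5 (105764 bp) and CEACAM7 (129222 bp). To the left of CEACAM1 one with 20.4, past the limits, lay at 83457 bp, and it was the nearest to CEACAM8, at 156396 bp. On the other side of CEACAM8 the next H3K4me3 interval lay 867845 bp away (7.30).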
